A study of Mus musculus with 34 samples.

Results

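The expression of 9 early neural lineage genes was followed in mouse embryonic stem (ES) cells that lacked one or more MTA proteins, which are subunits of the Nucleosome Remodelling and Deacetylation (NuRD) complex. The genes were Pax6, Nes, Sox1, Zic1, Hes5, Tubb3, Sox11, Pax3 and Olig3. They were taken by name, and all 9 were listed among the 48709 genes of 1 count table and among the 22018 genes of the other. The data were RNA-seq counts of 34 libraries of strain 129/Ola ES cells, in a set of 16 libraries and a set of 18. The comparisons asked how these genes differed between cultures, between cells with and without all 3 MTA proteins, and between each single mutant and the flox/flox or WT line it was set beside.

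The 16 libraries came from Control and Mta123KO cells, with 4 libraries in each of 4 groups. The Control cells were not wild type. By the description of the lines they were heterozygous for a deleted Mta1 allele and had loxP-flanked Mta3 alleles, and Mta123KO was made from Mta1 deleted, Mta3 loxP-flanked cells by targeting Mta2 and then deleting Mta3 with Cre. Each genotype and culture was labelled either 2iL, which is medium with inhibitors of Mek and Gsk3 plus the cytokine LIF, or 48 h in the absence of inhibitors and LIF, in a medium that favours neuroectoderm. The 18 libraries were all labelled as grown in 2iL and held 3 libraries of each of Mta1 del/del, Mta1 flox/flox, Mta2 KO, Mta2 WT, Mta3 del/del and Mta3 flox/flox. The flox/flox cells were the parents from which Cre made the del/del cells, and Mta2 KO was a primary line set beside a wild-type line. The first part of a replicate number (1_1, 1_2, 2_1, 2_2) in the 16 libraries was read as the cell line, so each of those groups held 2 lines with 2 libraries each, and the labels do not state whether libraries were separate cultures. The p-values therefore measure the spread between libraries, which may in part be technical.

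For the 16 libraries the culture given by the labels was the opposite of that in the file names. The labels were followed, and the groups are called "labelled 2iL" and "labelled 48 h" throughout. The naive pluripotency genes, which are high in ES cells kept in 2iL, went against the labels. Nanog, a core pluripotency factor, was at 67.5 ± 15.5 CPM (counts of a gene scaled to 1000000 counts of its TMM-normalized library total, SD, n = 4) in Control labelled 2iL and at 933 ± 79.6 CPM in Control labelled 48 h. Klf4, another naive factor, was at 4.67 ± 2.33 CPM and 137 ± 14.5 CPM in the same groups. Exchanging the labels would turn the direction of every culture change given here and would exchange the 2 comparisons of Mta123KO with Control, leaving the direction of each genotype difference as it is.

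Early in neural development the epiblast becomes a neural plate, in which SoxB1 factors such as Sox1, paired-box factors such as Pax6 and Pax3, and Zic factors mark progenitors and their position. Notch signalling, read out by Hes5, keeps progenitors from differentiating too soon, and Nes (nestin) is an intermediate filament of progenitors. Sox11, a SoxC factor, and Tubb3, a beta-tubulin, rise as neurons form, and Olig3 is a bHLH factor of dorsal progenitors. ES cells can hold low levels of some of these transcripts without being neural cells.

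Library depth was 37855790 to 57602285 counts in the 16 libraries and 13105820 to 40613585 counts in the 18. In the 16 libraries Mta2, the targeted gene, was at 123 ± 7.84 CPM in Control and 6.71 ± 2.12 CPM in Mta123KO labelled 2iL, and at 192 ± 7.06 and 8.28 ± 2.01 CPM labelled 48 h (SD, n = 4). Mta3 was at 65.1 ± 8.59 and 18.9 ± 4.68 CPM labelled 2iL. Mta1 was at 42.0 ± 6.64 and 24.6 ± 5.70 CPM. Counts are of whole genes, so exons left in place could add to them, which was not tested. In the single mutants Mta2 was at 10.5 ± 1.35 CPM in Mta2 KO and 237 ± 8.68 CPM in WT, Mta3 was at 11.2 ± 1.56 and 66.6 ± 5.32 CPM in del/del and flox/flox, and Mta1 was at 43.1 ± 4.77 and 84.3 ± 18.4 CPM (SD, n = 3).

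The 9 genes lie on 8 chromosomes (GRCm38). Pax6 is at chr2:105668900-105697364, plus strand, Nes at chr3:87971078-87980451, plus strand, Sox1 at chr8:12395295-12400126, plus strand, Zic1 at chr9:91358058-91365810, minus strand, and Hes5 at chr4:154960923-154962371, plus strand. Tubb3 is at chr8:123411424-123422015, plus strand, Sox11 at chr12:27334264-27342574, minus strand, Pax3 at chr1:78101267-78197134, minus strand, and Olig3 at chr10:19356533-19358604, plus strand. Exons of Zic1 and Zic4 share 60 bases on opposite strands, Hes5 shares 433 bases with Gm20421 on the opposite strand, and Sox1 shares 86 bases with the small RNA gene Gm25239. The strand setting of the counting is not given in the sources used here, so reads in those stretches cannot be assigned with certainty.

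Upstream sequence is shown for Pax6 and Sox11, which were both lower in Mta123KO labelled 2iL. It is also shown for Olig3, which at few counts was lower in Mta123KO labelled 48 h. The windows hold up to 250 bases before the annotated start on build GRCm38.p6 (RefSeq), 5′ to 3′ on the gene's own strand. Capitals mark matches on either strand to TATAAA, the CCAAT box, the GC box GGGCGG, the octamer ATGCAAAT, the Sox motif ACAATG or the Rbpj motif TGGGAA.
Pax6, chr2:105668646-105668895, plus strand: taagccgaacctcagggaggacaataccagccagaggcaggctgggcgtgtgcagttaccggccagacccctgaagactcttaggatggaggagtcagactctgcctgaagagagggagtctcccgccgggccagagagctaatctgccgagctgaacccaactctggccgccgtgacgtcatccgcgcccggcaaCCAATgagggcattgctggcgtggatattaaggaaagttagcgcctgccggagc
Sox11, chr12:27342719-27342968, minus strand: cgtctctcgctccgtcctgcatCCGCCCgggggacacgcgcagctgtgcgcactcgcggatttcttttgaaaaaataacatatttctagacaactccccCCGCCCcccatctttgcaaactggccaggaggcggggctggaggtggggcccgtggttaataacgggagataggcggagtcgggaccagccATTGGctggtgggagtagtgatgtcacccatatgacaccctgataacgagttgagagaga
Olig3, chr10:19356289-19356532, plus strand: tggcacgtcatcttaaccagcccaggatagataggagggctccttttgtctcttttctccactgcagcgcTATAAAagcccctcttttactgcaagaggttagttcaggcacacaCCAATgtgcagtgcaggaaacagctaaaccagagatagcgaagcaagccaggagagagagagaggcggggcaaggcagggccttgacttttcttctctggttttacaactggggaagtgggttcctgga
The Pax6 window was 60.8% GC with 15 CpG and 1 CCAAT match. The Sox11 window was 58% GC with 17 CpG, 2 matches to the GC box and 1 CCAAT match. Olig3 was 51.2% GC with 4 CpG, and held 1 TATAAA and 1 CCAAT match. Of 32851 windows of 250 bases over all genes, with a median of 52.4% GC, 12.4% held TATAAA, 33.8% the CCAAT box, 32.7% GGGCGG, 1.6% ATGCAAAT, 10.7% ACAATG and 21.6% TGGGAA. These matches describe letters in the windows. A window was found for 8 of the 9 genes, Pax3 being the exception.

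Levels were first set side by side per length of exon, as CPM per kb, within the 16 libraries. In Control labelled 2iL, Tubb3 was highest at 18.0 ± 1.84 CPM per kb, followed by Sox11 at 11.5 ± 0.719 and Sox1 at 10.1 ± 1.45 (SD, n = 4). Sox11 and Sox1 lay within their spread of each other, whereas Nes at 3.86 ± 0.378 and Pax6 at 0.95 ± 0.135 were each below the gene before them. Olig3 at 0.377 ± 0.336, Zic1 at 0.170 ± 0.0480, Hes5 at 0.0495 ± 0.0425 and Pax3 at 0.0211 ± 0.0129 CPM per kb were the lowest, and Olig3 and Zic1 did not differ beyond their spread, nor did Hes5 and Pax3. In Mta2 KO, which belongs to the other count table, the order was Tubb3 at 119 ± 5.52 CPM per kb, Olig3 at 7.20 ± 0.322, Nes at 6.16 ± 0.162, Sox11 at 2.38 ± 0.226 and Pax6 at 1.86 ± 0.367 (SD, n = 3). In Mta2 KO Olig3 thus stood above Nes and Pax6. In Mta2 WT it was at 1.61 ± 0.275 CPM per kb, above Pax6 at 0.649 ± 0.483 and below Nes at 2.38 ± 0.262 (SD, n = 3). In Control labelled 2iL Olig3 stood below both. In Control labelled 48 h it was at 0.564 ± 0.211 CPM per kb, above Pax6 at 0.176 ± 0.0953 (SD, n = 4). Levels were not compared between the 2 count tables.

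**Figure D1:**
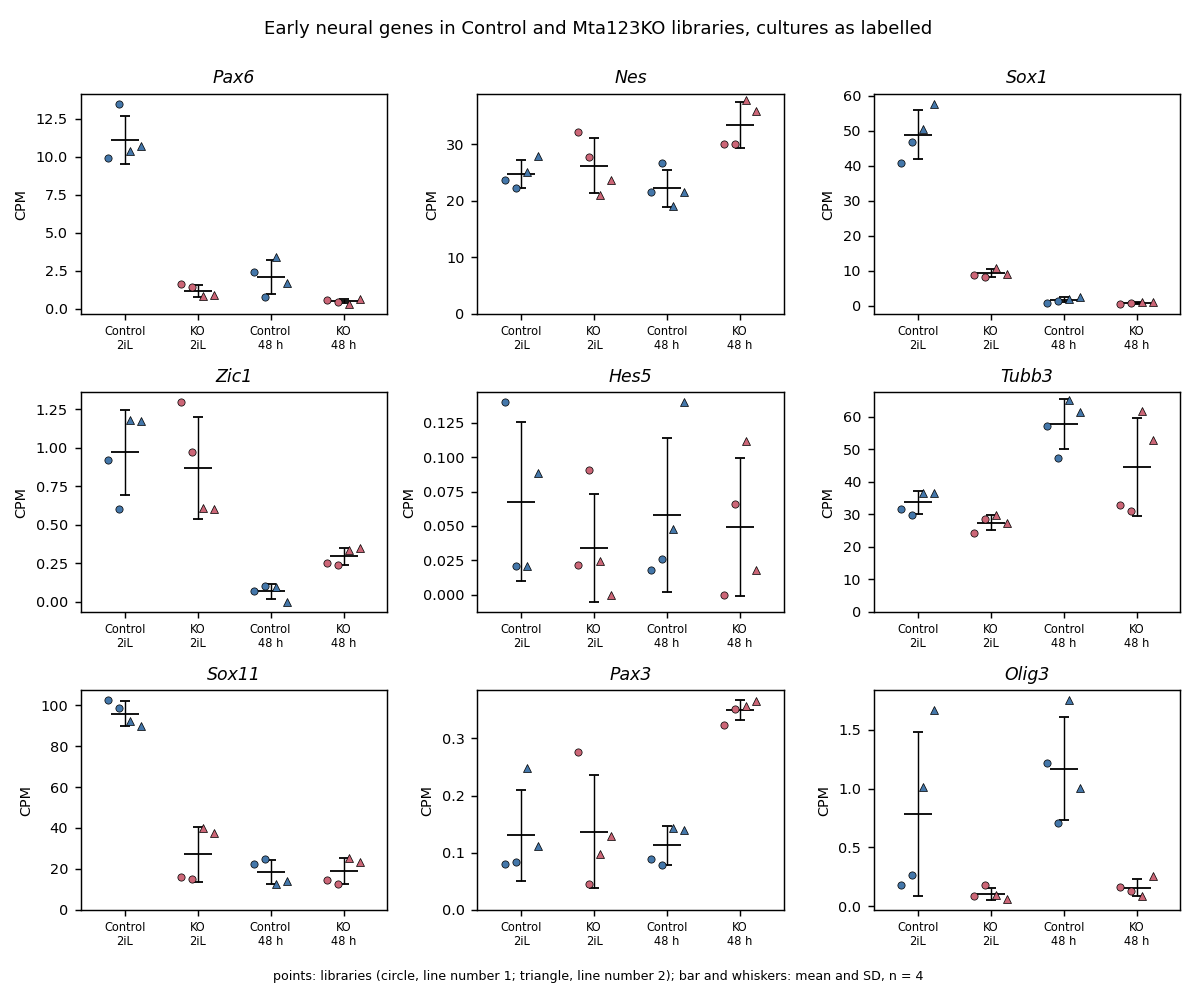
Counts per 1000000 (CPM) of the 9 genes in each of the 16 libraries, 1 panel a gene, with the 4 groups on the horizontal axis. Circles are libraries of line 1 and triangles of line 2, bars are means and whiskers SD (n = 4). Sox1, Sox11 and Pax6 are highest in Control labelled 2iL, with no overlap with the other groups.

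In Control cells Sox1, Sox11, Pax6 and Zic1 were lower under the 48 h label than under the 2iL label, and Tubb3 was higher. A gene was called where its adjusted p was under 0.05 and its log2 change over 1 in size. Of the 9 genes, 7 passed the filter on low counts, 4 were called lower and 0 higher, while 13.2% of the 21240 genes tested were called lower and 10.4% higher. By adjusted p alone, with no minimum fold, 4 fell and 1 rose, beside 29% and 29.5% of all genes. Hes5 and Pax3 did not pass the filter. Zic1, called lower, had 29 to 57 counts labelled 2iL and 0 to 4 labelled 48 h. It therefore passed the filter through the group in which it was high, and its call says nothing beyond that. In Mta123KO the same contrast had 7 of the 9 genes tested, of which 3 were called lower and 0 higher, with 4.62% and 4.84% of 21505 genes called lower and higher, and with 10% and 12.4% past adjusted p alone. Hes5 and Olig3 were not tested there.

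Between genotypes, 6 of the 9 genes were tested among libraries labelled 2iL, and 3 were called lower in Mta123KO and 0 higher. The background there was 7.43% called lower and 13.2% called higher of 21651 genes, and by adjusted p alone 24.2% fell and 27.1% rose, against 4 and 0 of the 9 genes. Among libraries labelled 48 h, 8 were tested, 2 were called lower and 2 higher, beside 5.93% and 14.1% of 21079 genes. Both genes called higher, Zic1 and Pax3, reached the minimum count of 10 only in Mta123KO, so they entered the test through the group in which they were high and their count says nothing beyond that. Olig3, called lower, had 27 to 73 counts in Control and 4 to 14 in Mta123KO. It passed the filter through Control, where it was high, and the same limit holds for its call. By adjusted p alone 2 fell and 3 rose there, beside 23.4% and 26.6% of all genes. The interaction, which tests whether the culture change differed between Mta123KO and Control, was called for 3 genes in the positive direction and 0 in the negative. Over 22973 genes it was called in 7.66% and 5.37%, and passed adjusted p alone in 12.5% and 10.6%, which for these genes gave again 3 and 0. Zic1 was among the 3. It had 0 to 4 counts in Control labelled 48 h and passed the filter through groups in which it was higher. The same limit therefore holds for its interaction call. The 4 comparisons share groups, so the values are given side by side and their overlap is not counted.

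Sox1, a SoxB1 transcription factor among the first genes of the neural plate, had the widest range on a log scale. In Control labelled 2iL it was at 40.8, 46.8, 50.4 and 57.6 CPM in libraries 1_1, 1_2, 2_1 and 2_2, and in Control labelled 48 h at 0.828, 1.52, 2.08 and 2.68 CPM. In Mta123KO it was at 8.98, 8.38, 10.9 and 9.12 CPM labelled 2iL and at 0.624, 0.835, 1.21 and 1.13 CPM labelled 48 h. Every library labelled 2iL stood above every library labelled 48 h in both genotypes, and the genotypes did not overlap among libraries labelled 2iL but did overlap among those labelled 48 h. Sox1 fell by 4.79 on the log2 scale with the culture label in Control (SE 0.26, adjusted p = 6.64e-08 by edgeR's quasi-likelihood test), a 27.5-fold difference of means, and by 3.30 in Mta123KO (SE 0.22, adjusted p = 6.84e-05), a 9.86-fold difference. Among libraries labelled 2iL it was 5.23-fold lower in Mta123KO than in Control (log2 change -2.37, SE 0.13, adjusted p = 3.51e-06). Among those labelled 48 h the log2 change was -0.89 (SE 0.36, adjusted p = 0.0675). That difference in Sox1 passed in 4 settings, with an adjusted p of 0.0425 by DESeq2, 0.021 with a replicate block, 0.0177 in 1 fit of all 16 libraries and 0.0164 with scaling to the spike-in RNAs. It missed the threshold with RLE size factors (0.0673), no filter (0.0652) and lines summed (0.246), and in 7 of the 8 fits that left out 1 library, with an adjusted p of up to 0.188. The culture change was smaller in Mta123KO by 1.501 on the log2 scale (SE 0.37, adjusted p = 0.00859).

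Sox11, the SoxC factor, was high in Control labelled 2iL, at 102.7, 98.7, 92.1 and 89.7 CPM. In Mta123KO labelled 2iL it was at 15.96 and 15.2 CPM in line 1 and at 39.9 and 37.4 CPM in line 2. In libraries labelled 48 h it was at 22.5, 24.9, 12.8 and 14.0 CPM in Control and at 14.5, 12.9, 25.1 and 23.6 CPM in Mta123KO. Control labelled 2iL stood apart from the other 3 groups, which overlapped, and in Mta123KO the 2 lines stood apart from each other under both labels. Sox11 fell by 2.35 with the culture label in Control (SE 0.19, adjusted p = 1.49e-06), and was 3.53-fold lower in Mta123KO than in Control labelled 2iL (log2 change -1.80, SE 0.31, adjusted p = 0.00135). In Mta123KO its culture change was -0.52 (SE 0.38, adjusted p = 0.368). Under a replicate block, which lets same-numbered libraries share a level, it was -0.44, with an adjusted p of 0.0114, and with the libraries of each line summed 0.731. Line 2 held 38.7 CPM against 15.6 CPM in line 1 of Mta123KO labelled 2iL, and 24.3 against 13.7 CPM labelled 48 h, each a mean of 2 libraries. The interaction was 1.86 (SE 0.45, adjusted p = 0.0074).

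With the 2 libraries of each line summed, which leaves 2 values a group, the difference of Sox11 between genotypes labelled 2iL had an adjusted p of 0.0565, and the interactions of Sox1, Zic1 and Sox11 had 0.178, 0.136 and 0.205. The culture changes of Pax6, Sox1 and Zic1 in Mta123KO then had adjusted p-values of 0.315, 0.137 and 0.278, with log2 changes of -1.21, -3.30 and -1.56 that kept their direction. With lines summed 0 of all 24445 genes were called with the culture label in Mta123KO, while 2476 were called higher and 3157 lower in Control at the same number of values. The fit of summed lines did not pair the values of a line across labels. With the line as a block and libraries not summed, 1383 genes were called higher and 1313 lower in Mta123KO. In that fit libraries of a line still counted as separate values.

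Pax6, a paired-box and homeodomain factor of the anterior neural plate and eye field, was at 9.93, 13.4, 10.4 and 10.7 CPM in Control labelled 2iL and at 2.38, 0.762, 3.40 and 1.68 CPM in Control labelled 48 h. In Mta123KO it was at 1.61, 1.40, 0.801 and 0.861 CPM labelled 2iL and at 0.554, 0.462, 0.313 and 0.657 CPM labelled 48 h. Neither genotype overlapped with the other under either label, and within each genotype the labels did not overlap. Pax6 was 9.50-fold lower in Mta123KO among libraries labelled 2iL (log2 change -3.22, SE 0.24, adjusted p = 1.54e-05) and 4.14-fold lower among those labelled 48 h (-2.03, SE 0.43, adjusted p = 0.0041). With the culture label it fell by 2.41 in Control (SE 0.31, adjusted p = 5.89e-05) and by 1.23 in Mta123KO (SE 0.32, adjusted p = 0.0265). The change in Mta123KO missed the threshold in 5 of the 8 fits that left out 1 library, where it ran from -1.40 to -1.04 with an adjusted p of up to 0.0688, and with scaling to the spike-in RNAs (0.0569). The interaction was 1.20 (SE 0.51, adjusted p = 0.104).

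Zic1, a zinc-finger factor of the dorsal neural plate, stayed near or below 1 CPM. It was at 0.919, 0.602, 1.18 and 1.17 CPM in Control labelled 2iL and at 1.29, 0.974, 0.607 and 0.603 CPM in Mta123KO labelled 2iL, and these groups overlapped (log2 change -0.13, SE 0.32, adjusted p = 0.75). In Control labelled 48 h it had 4, 4, 4 and 0 counts, that is 0.0705, 0.105, 0.0958 and 0 CPM, and 0 counts allow up to 0.0699 CPM. In Mta123KO labelled 48 h it was at 0.254, 0.242, 0.335 and 0.347 CPM, from 11 to 19 counts a library, all above Control. With the culture label Zic1 fell by 3.79 in Control (SE 0.47, adjusted p = 4.07e-05) and by 1.56 in Mta123KO (SE 0.32, adjusted p = 0.00958). It was higher in Mta123KO among libraries labelled 48 h by 2.104 (SE 0.52, adjusted p = 0.00849), a 4.34-fold difference of means at these low counts. The interaction was 2.25 (SE 0.62, adjusted p = 0.0158).

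Pax3, the paired-box factor of the dorsal neural tube and neural crest, was lower still. It had 4 to 12 counts in Control labelled 2iL, 2 to 13 in Mta123KO labelled 2iL and 3 to 6 in Control labelled 48 h. In Mta123KO labelled 48 h it had 14 to 20 counts, or 0.323, 0.352, 0.357 and 0.365 CPM, more than any library of the other 3 groups. That difference from Control labelled 48 h was 3.10-fold (log2 change 1.63, SE 0.29, adjusted p = 0.00162), and had an adjusted p of 0.0663 with the libraries of each line summed. Its culture change in Mta123KO was 1.32 (SE 0.44, adjusted p = 0.0644), and under the replicate block 1.38 with an adjusted p of 0.0382. With lines summed the adjusted p of Pax3 was 0.298. Hes5, a direct target of Notch signalling, had 0 to 7 counts in every one of the 16 libraries, at most 0.140 CPM, and was tested in no comparison. A library with 0 counts of Hes5 allowed up to 0.0693 CPM, and no statement on a difference in Hes5 is made at these counts.

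Olig3, the bHLH factor of dorsal progenitors, was at 0.180, 0.270, 1.01 and 1.66 CPM in Control labelled 2iL and at 1.22, 0.709, 1.75 and 1.002 CPM in Control labelled 48 h. In Mta123KO it was at 0.0849, 0.181, 0.0971 and 0.0646 CPM labelled 2iL and at 0.162, 0.132, 0.0893 and 0.255 CPM labelled 48 h. All Mta123KO libraries labelled 48 h stood below all Control libraries with that label, and the difference was 7.32-fold (log2 change -2.82, SE 0.39, adjusted p = 0.000351). Among libraries labelled 2iL the means were 0.107 ± 0.0513 and 0.782 ± 0.696 CPM (SD, n = 4), the lowest Control library lay just below the highest Mta123KO library, and the gene did not pass the filter. In Control labelled 2iL the 2 lines were at means of 0.225 and 1.34 CPM. The culture change in Control was 0.61 (SE 0.57, adjusted p = 0.382).

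Nes and Tubb3, the cytoskeletal genes, varied least as folds among the genes that were tested, which leaves out Hes5. Nes was at 23.8, 22.2, 25.1 and 27.9 CPM in Control labelled 2iL, at 32.3, 27.7, 21.1 and 23.8 CPM in Mta123KO labelled 2iL, at 21.6, 26.7, 19.0 and 21.5 CPM in Control labelled 48 h, and at 30.0, 30.0, 37.9 and 35.8 CPM in Mta123KO labelled 48 h. The last group stood above Control with the same label in every library, and Nes was 1.51-fold higher there (log2 change 0.60, SE 0.12, adjusted p = 0.00322), with an adjusted p of 0.0877 when the libraries were scaled to the spike-in RNAs and 0.0652 with lines summed. In the other comparisons Nes did not pass the threshold, with log2 changes of -0.14 and 0.35 with the culture label in Control and Mta123KO and of 0.10 between genotypes labelled 2iL. The change of Nes in Mta123KO had an adjusted p of 0.0423 by edgeR with the line as a block. Without library 1_1 of Mta123KO labelled 2iL it was 0.46, with an adjusted p of 0.049.

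Tubb3 was at 31.6, 29.9, 36.6 and 36.5 CPM in Control labelled 2iL and at 57.0, 47.3, 65.0 and 61.6 CPM in Control labelled 48 h. In Mta123KO it was at 24.1, 28.5, 29.6 and 27.4 CPM labelled 2iL and at 32.7, 30.9, 61.6 and 52.7 CPM labelled 48 h. In both genotypes every library labelled 48 h was above every library labelled 2iL. Tubb3 rose in Control by 0.79 (SE 0.10, adjusted p = 5.69e-05), a 1.72-fold difference of means and the opposite direction to Sox1, Sox11, Pax6 and Zic1. In Mta123KO the change was 0.69 (SE 0.22, adjusted p = 0.0557), with lines at means of 31.8 and 57.1 CPM labelled 48 h, and under the replicate block it was 0.64 with an adjusted p of 0.0109, and with lines summed 0.406. Tubb3 fell by 0.28 in Mta123KO labelled 2iL (SE 0.10, adjusted p = 0.0369), less than the minimum fold for a call. In 6 of the 8 fits that left out 1 library it missed the threshold on adjusted p. The changes of Tubb3 over the 8 fits ran from -0.33 to -0.22, with an adjusted p of up to 0.105. Its interaction was -0.08 (adjusted p = 0.865).

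**Figure D2:**
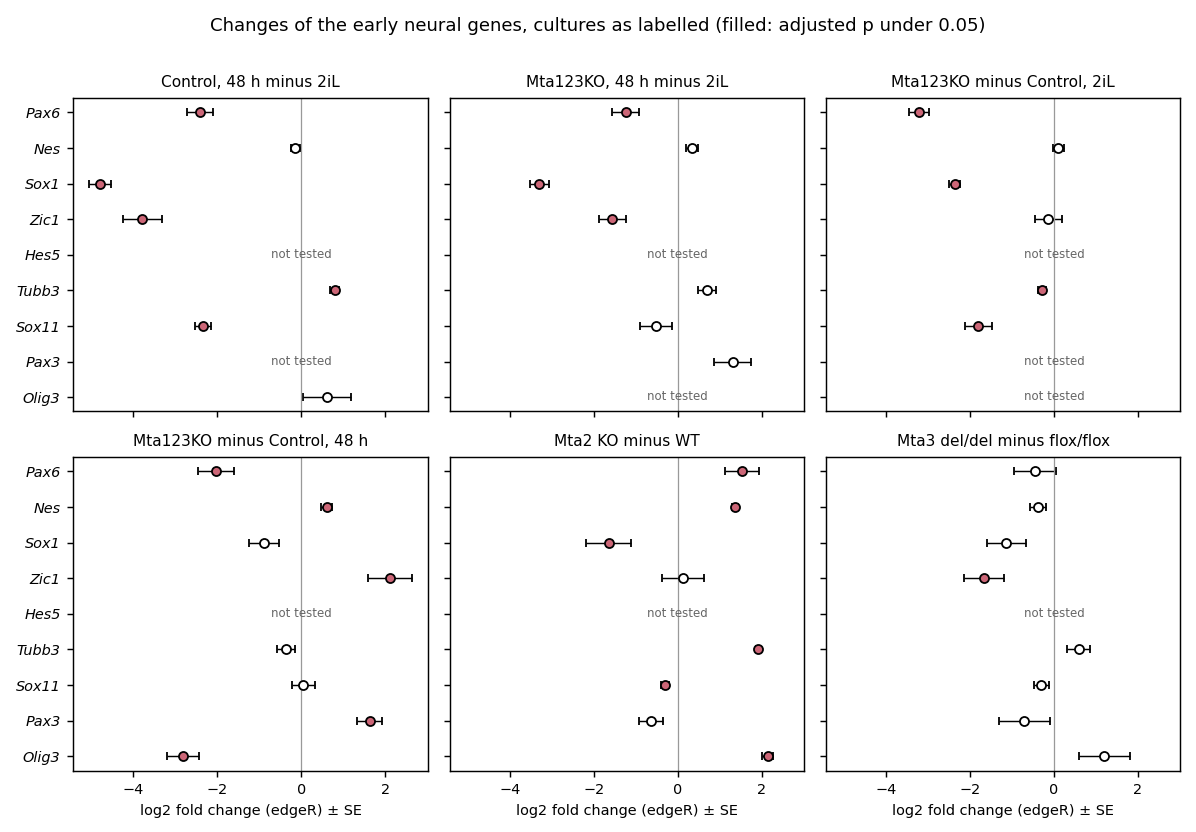
Log2 fold changes with standard errors of the 9 genes in 6 comparisons, 1 panel a comparison. Filled points passed an adjusted p of 0.05 and genes that did not pass the filter on low counts are marked as not tested. Sox1 shows the largest culture change, -4.79 in Control, and Pax6 the largest difference between genotypes labelled 2iL, -3.22.

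Summed over the 9 genes, Control labelled 2iL held 210 to 225 CPM, while Mta123KO labelled 2iL held 82.6 to 103, Control labelled 48 h 102 to 106 and Mta123KO labelled 48 h 75.8 to 127 CPM. Marker lists of other cell states moved with the groups. The summed level of 12 naive pluripotency genes was 183 to 274 CPM in Control and 472 to 600 CPM in Mta123KO labelled 2iL, and 3961 to 4378 and 2038 to 2972 CPM labelled 48 h. All 12 rose with the culture label in Control and 11 of 12 in Mta123KO, and 8 of 12 were higher in Mta123KO labelled 2iL and 9 of 12 lower in Mta123KO labelled 48 h. The 10 formative and primed pluripotency genes summed to 1516 to 2141 and 605 to 933 CPM in Control and Mta123KO labelled 2iL, and to 158 to 194 and 231 to 344 CPM labelled 48 h. With the culture label all 10 fell in Control and 7 of 10 in Mta123KO, and in Mta123KO 6 of 10 were lower and 1 higher labelled 2iL, and 2 of the 9 tested were lower and 2 higher labelled 48 h. The highest sums of the formative list and of the 9 genes were thus in the same group.

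The 10 trophoblast genes summed to 16.5 to 20.9 CPM in Control and 96.8 to 381 CPM in Mta123KO labelled 2iL, and to 77.1 to 98.0 and 133 to 558 CPM labelled 48 h. All 10 were higher in Mta123KO labelled 2iL, and 6 of 9 tested were higher and 1 lower labelled 48 h, with median log2 changes of 3.70 and 4.12 beside 0.01 over all genes in each. With the culture label 5 of 9 rose and 3 fell in Control, and 0 of 10 rose and 2 fell in Mta123KO. No gene of these 3 lists was at 0 in a whole group. The 8 neuron genes summed to 73.9 to 81.0 and 20.4 to 55.1 CPM in Control and Mta123KO labelled 2iL and to 151 to 176 and 53.0 to 133 CPM labelled 48 h, with Slc17a6, a glutamate transporter of neurons, at 0 in Control labelled 48 h. The 10 primitive endoderm genes summed to 9.45 to 23.4 and 20.7 to 29.8 CPM labelled 2iL and to 6.04 to 7.27 and 20.9 to 23.6 CPM labelled 48 h, in Control and Mta123KO. In Mta123KO 4 of 9 tested were higher and 2 lower labelled 2iL, and 4 of 7 higher and 1 lower labelled 48 h. Paraxial mesoderm genes, 8 in the list, summed to 21.3 to 27.5 and 8.52 to 19.6 CPM labelled 2iL and to 3.28 to 5.31 and 5.18 to 5.83 CPM labelled 48 h, highest in Control labelled 2iL as the 9 genes were. Of 3 tested in Control 3 fell with the culture label, and of 4 in Mta123KO 3 fell, while between genotypes 2 of 4 were lower and 1 higher labelled 2iL and 0 of 3 passed labelled 48 h. Ripply2 of this list was at 0 in Mta123KO labelled 2iL. The 8 fibroblast genes summed to 8.76 to 10.7 and 13.5 to 19.9 CPM labelled 2iL and to 5.94 to 9.46 and 9.34 to 23.1 CPM labelled 48 h, with 4 of 5 tested higher and 1 lower in Mta123KO labelled 2iL and 2 of 3 higher labelled 48 h, and with Dcn at 0 in Control labelled 48 h. The part of these states in the differences of the 9 genes was not tested. In bulk RNA, fewer cells that express a gene and less RNA of it per cell cannot be told apart.

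**Figure D3:**
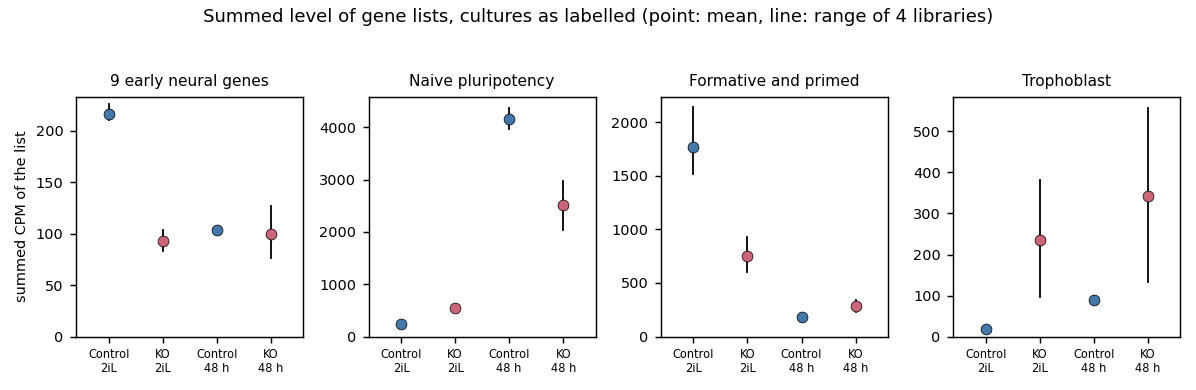
Summed CPM of the 9 genes and of the naive, formative and primed, and trophoblast lists in the 4 groups of the 16 libraries, with points at the mean and lines from the lowest to the highest of 4 libraries. The 9 genes and the formative list are highest in Control labelled 2iL, and the naive list in Control labelled 48 h.

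Related genes were taken from lists of 30 neural plate and progenitor genes, 26 proneural and neuronal genes, 25 genes of the Notch pathway, 15 of the neural crest and plate border and 28 relatives of the 9 genes, which in part hold the same genes. Their counts are by adjusted p alone, with no minimum fold, and stand beside the share of all genes by the same criterion, which with the culture label in Control was 29.5% higher and 29% lower. With the culture label in Control, 10 neural plate genes rose and 12 fell of 25 tested, with a median log2 change of -0.03 beside 0.01 over all genes. Pou3f1, a POU factor of the primed epiblast and neural plate, fell by 5.65 (SE 0.20, adjusted p = 4.19e-09), while Hesx1, a homeobox repressor of the forebrain, rose by 3.71 (SE 0.37, adjusted p = 6.67e-06). Of 19 proneural and neuronal genes 6 rose and 10 fell, with Mapt, the microtubule protein tau, up by 3.30 and Insm1, a zinc-finger factor of neuronal differentiation, down at -7.08 (median of the list -1.53). Of 22 Notch pathway genes 8 rose and 11 fell (median -0.20), with the receptor Notch4 at 3.27 and the ligand Dll1 at -6.63. Of 10 crest genes 3 rose and 5 fell (median -0.68), and of 20 relatives 5 rose and 12 fell (median -0.96). Sox2 and Sox3, the SoxB1 relatives of Sox1, went opposite ways. Sox2 rose by 1.62 (SE 0.11, adjusted p = 2.63e-07) and Sox3 fell by 4.11 (SE 0.19, adjusted p = 1.96e-08).

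With the culture label in Mta123KO, where 12.4% of all genes rose and 10% fell, the counts were 3 and 5 of 24 neural plate genes, 4 and 5 of 19 proneural genes, 4 and 4 of 24 Notch genes, 1 and 3 of 12 crest genes and 2 and 4 of 20 relatives, with medians of -0.44, -0.09, -0.07, -0.83 and -0.12. Pou3f1 and Dll1 fell by 3.39 and 2.22.

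Between genotypes labelled 2iL, where 27.1% of all genes rose and 24.2% fell, 5 neural plate genes rose and 10 fell of 25 in Mta123KO (median -0.73), 5 and 10 of 21 proneural genes (-0.52), 8 and 7 of 24 Notch genes (0.14), 8 and 1 of 12 crest genes (1.26), and 3 and 12 of 21 relatives (-0.68). Sox3 and Olig2, relatives of Sox1 and Olig3, fell by 4.11 (SE 0.34, adjusted p = 2.65e-05) and fell by 2.66 (SE 0.36, adjusted p = 0.000329). Tubb4a, a relative of Tubb3, rose by 1.76 (SE 0.23, adjusted p = 0.000246), and Mapt rose by 3.45 (SE 0.12, adjusted p = 8.04e-07). Between genotypes labelled 48 h, where 26.6% of all genes rose and 23.4% fell, 2 neural plate genes rose and 13 fell of 24 (median -0.95), 8 and 6 of 18 proneural genes (1.20), 8 and 5 of 22 Notch genes (0.07), 5 and 2 of 11 crest genes (0.84), and 6 and 9 of 19 relatives (-0.16). Olig2 and Olig1 fell by 2.44 and 1.74 there (SE 0.21 and 0.32, adjusted p = 2.41e-05 and 0.00193). Vim (vimentin), an intermediate filament as Nes is, fell by 1.82 (SE 0.09, adjusted p = 2.2e-06), whereas Nes rose. Dll1 rose by 3.12 (SE 0.55, adjusted p = 0.0015) and Notch4 fell by 2.38 (SE 0.13, adjusted p = 2.73e-06). For the interaction, past adjusted p in 12.5% and 10.6% of all genes, the counts were 4 and 6 of 26 neural plate genes, 5 and 1 of 23 proneural genes, 10 and 4 of 24 Notch genes, 1 and 2 of 12 crest genes and 6 and 1 of 22 relatives in the positive and negative direction.

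The single mutants were compared with flox/flox or WT cells in the other 18 libraries, all labelled 2iL, whose naive pluripotency genes summed to 3495 to 6267 CPM. In Mta2 KO, Tubb3, Olig3, Nes and Pax6 were higher than in WT and Sox1 was lower, Sox11 was lower by less, and Zic1 and Pax3 did not pass the test. Of the 9 genes 8 were tested, 4 were called higher and 1 lower, while 5.31% and 6.04% of 15602 genes were. By adjusted p alone 4 rose and 2 fell, beside 23.5% and 24.3% of all genes. Sox1, called lower, had 22 to 40 counts in WT and 2 to 17 in Mta2 KO. It passed the filter through WT, where it was high, and its call says nothing beyond that. In Mta3 del/del 8 were tested, 0 were called higher and 1 lower, beside 0.812% and 5.25% of 15522 genes. That background rests on single libraries, with 126 genes called higher and 815 lower in all, 1 and 2 without del/del replicate 1, 251 and 1473 without del/del replicate 2, and 41 and 205 without del/del replicate 3. Without flox/flox replicate 1, 2 or 3 there were 102, 38 and 44 called higher and 451, 186 and 331 lower. By adjusted p alone the counts of the 9 genes were again 0 and 1, beside 8.32% and 7.84%. The gene called lower, Zic1, had 13 to 31 counts in flox/flox and 6 to 14 in del/del. It passed the filter through flox/flox, where it was high, and the same limit holds for its call. In Mta1 del/del 7 were tested and 0 passed in either direction. The deleted gene Mta1 did not pass there either, with a log2 change of -0.97 and an adjusted p of 1 though its groups did not overlap. The background was 0% of 14561 genes by either criterion, and 50 of all genes had an unadjusted p under 0.05 by edgeR.

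**Figure D4:**
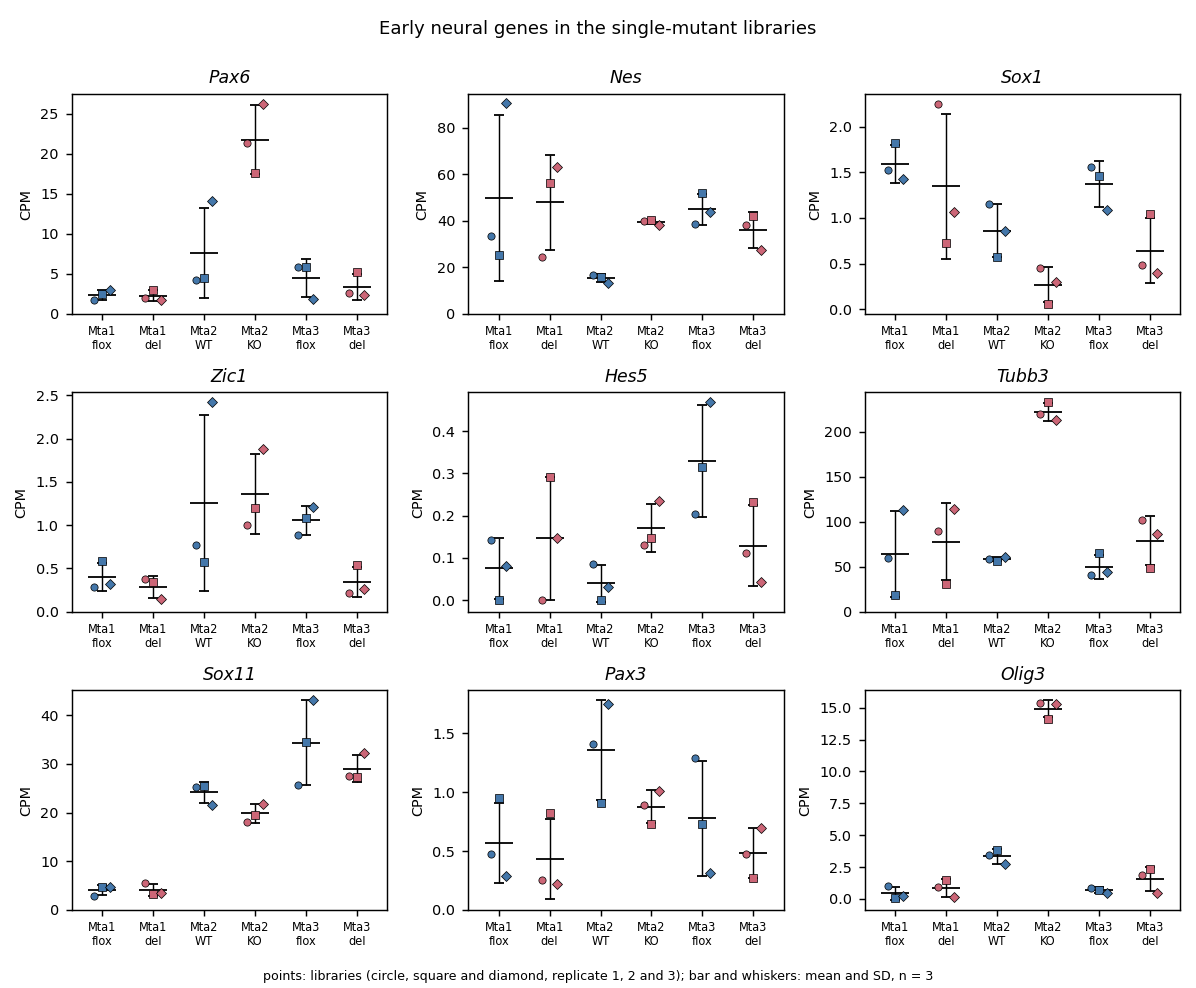
Counts per 1000000 (CPM) of the 9 genes in each of the 18 libraries labelled 2iL, 1 panel a gene, with the 6 groups on the horizontal axis, bars at the mean and whiskers of SD (n = 3). Tubb3, Olig3 and Nes show 3 Mta2 KO libraries close together and above all 3 WT libraries.

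Tubb3 was at 220, 233 and 213 CPM in Mta2 KO replicates 1, 2 and 3 and at 58.2, 56.9 and 61.0 CPM in WT. It was 3.78-fold higher with no overlap (log2 change 1.91, SE 0.05, adjusted p = 6.74e-09 by edgeR). Olig3 was at 15.3, 14.1 and 15.3 CPM against 3.42, 3.87 and 2.74 CPM, which was 4.46-fold higher (log2 change 2.14, SE 0.13, adjusted p = 1.17e-06). Nes was at 39.7, 40.4 and 38.4 CPM against 16.7, 15.7 and 13.4 CPM, which was 2.59-fold higher (1.36, SE 0.08, adjusted p = 1.28e-06). These 3 genes had narrow groups, with no overlap between Mta2 KO and WT. Mta2 KO was a primary line set beside a wild-type line, and the labels give no line for these libraries. The SE measures the spread between libraries. Differences between the lines and the loss of Mta2 cannot be told apart. The 12 naive pluripotency genes summed to 3930 to 4060 CPM in Mta2 KO and 5081 to 5411 CPM in WT, with 2 higher and 8 lower, and their part in these differences was not tested. Summed neuron markers were also lower, at 93.7 to 99.1 CPM in Mta2 KO and 169 to 186 CPM in WT, with 3 of the 7 tested higher and 1 lower and none at 0. The part of neuronal cells in the Tubb3 difference was not tested. The lower neuron gene was Stmn2, a microtubule regulator, at 51.5 CPM in Mta2 KO and 157 CPM in WT. Stmn2 made up most of the sum in both groups, so the lower sum does not describe the other genes of the list. The median log2 change of the list was 0.64. Map2 and the neurofilament-like gene Ina rose by 2.06 and 2.91 on the log2 scale.

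Pax6 was at 21.4, 17.6 and 26.2 CPM in Mta2 KO and at 4.20, 4.47 and 14.1 CPM in WT. The groups did not overlap, and WT replicate 3 stood well above the other two. The difference was 2.86-fold (log2 change 1.53, SE 0.40, adjusted p = 0.012), and without WT replicate 3 the log2 change was 2.31. Sox1 was at 0.446, 0.0584 and 0.302 CPM in Mta2 KO, from 17, 2 and 9 counts, and at 1.15, 0.572 and 0.860 CPM in WT, with no overlap. It fell by 1.65 (SE 0.54, adjusted p = 0.0314), and lost the call without KO replicate 2, KO replicate 3 or WT replicate 1, at adjusted p-values of 0.0635, 0.0777 and 0.118. Sox11 was at 18.1, 19.6 and 21.8 CPM against 25.3, 25.5 and 21.6 CPM, groups that overlapped, with a log2 change of -0.30 (SE 0.09, adjusted p = 0.0265) that missed the threshold in 4 of the 6 fits that left out 1 library. With all 18 libraries in 1 fit the adjusted p of Sox1 was 0.0561 and that of Sox11 0.445.

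Zic1 was at 0.998, 1.20 and 1.88 CPM in Mta2 KO and 0.777, 0.572 and 2.42 CPM in WT, which overlapped (log2 change 0.12, adjusted p = 0.871). WT replicate 3 was again the highest of its group, and without it the log2 change was 0.98 with an adjusted p of 0.0359. Pax3 was at 0.877 ± 0.139 CPM against 1.36 ± 0.424 CPM (SD, n = 3, adjusted p = 0.104). Hes5 was at 0.171 ± 0.0560 CPM in Mta2 KO and 0.0394 ± 0.0437 CPM in WT (SD, n = 3), from 5 to 7 and 0 to 3 counts a library with no overlap, a 4.33-fold difference of means that was not tested. A WT library with 0 counts allowed up to 0.0780 CPM.

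Among related genes in Mta2 KO, where 23.5% of all genes rose and 24.3% fell, 7 neural plate genes rose and 5 fell of 25 (median log2 change 0.13), 6 and 5 of 21 proneural genes (0.23), 10 and 2 of 23 Notch genes (0.36), 2 and 3 of 11 crest genes (0.25), and 4 and 5 of 20 relatives (0.04). Zfp521, a zinc-finger factor of early neural differentiation, rose by 3.24 (SE 0.14, adjusted p = 1.29e-07). Dtx1 and Lfng, regulators of Notch signalling, rose by 2.47 (SE 0.06, adjusted p = 6.74e-09) and 2.73 (SE 0.26, adjusted p = 3.07e-05). Sox4, the SoxC relative of Sox11, fell by 1.47 (SE 0.19, adjusted p = 0.000187).

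In Mta3 del/del only Zic1 passed among the 9 genes, with edgeR's adjusted p. It was at 0.221, 0.543 and 0.262 CPM against 0.882, 1.08 and 1.21 CPM in Mta3 flox/flox, with no overlap, 6 to 14 counts a library in del/del, and a 3.09-fold difference of means (log2 change -1.67, SE 0.48, adjusted p = 0.0472). The call was lost in 5 of the 6 fits that left out 1 library (-2.18 to -1.41, adjusted p of up to 0.185). It was also lost with DESeq2, with no filter, with the replicate block and in 1 fit of all libraries, at adjusted p-values of 0.0606, 0.0515, 0.0512 and 0.0554. Sox1 was at 0.478, 1.05 and 0.393 CPM against 1.56, 1.46 and 1.09 CPM, with del/del replicate 2 the nearest to flox/flox. Its log2 change was -1.14 (adjusted p = 0.122), and -1.69 without del/del replicate 2 (adjusted p = 0.0319). Tubb3 was at 102, 48.6 and 86.4 CPM against 40.4, 65.4 and 44.6 CPM, which overlapped through del/del replicate 2 and flox/flox replicate 2. Its change was 0.59 (adjusted p = 0.151), and 0.84 without del/del replicate 2 (adjusted p = 0.0259), and DESeq2 gave an adjusted p of 0.0496 with all libraries. Olig3 at 1.56 ± 0.974 against 0.669 ± 0.228 CPM, Nes at 35.9 ± 7.76 against 44.9 ± 6.71 CPM, Sox11 at 29.0 ± 2.79 against 34.3 ± 8.74 CPM, and Pax6 at 3.38 ± 1.61 against 4.48 ± 2.33 CPM were within or near their spread (SD, n = 3). Fibroblast markers summed to 13.2 to 17.5 CPM in del/del and 28.8 to 84.6 CPM in flox/flox, with 3 of the 5 tested lower, 0 higher and none at 0 in either group, and their part in these values was not tested.

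Among related genes in Mta3 del/del, beside 8.32% higher and 7.84% lower over all genes, the counts were 0 higher and 2 lower of 27 neural plate genes, 1 and 2 of 21 proneural genes, 1 and 4 of 23 Notch genes, 1 and 2 of 12 crest genes and 1 and 1 of 22 relatives. Dll1 fell by 3.44 (SE 0.50, adjusted p = 0.0148), from 6.53 ± 3.83 CPM in flox/flox to 0.616 ± 0.105 CPM in del/del. Ina rose by 2.11 (SE 0.48, adjusted p = 0.0271), from 3.47 ± 1.65 to 15.7 ± 9.18 CPM (SD, n = 3). Calls over all genes in this comparison rest on single libraries, and these genes are not given with a library left out. In Mta1 del/del 0 of the genes of these lists passed in either direction, by edgeR. Tubb3 was at 89.4, 30.5 and 113.8 CPM in Mta1 del/del and at 60.3, 18.2 and 113.5 CPM in flox/flox, and Nes was at 24.5, 56.1 and 63.1 against 33.3, 25.4 and 90.5 CPM. Both genes varied more within each group than between them. Within same-numbered pairs Tubb3 was higher in del/del in 3 of 3 and Nes in 1 of 3. Pax6 was at 2.24 ± 0.670 against 2.37 ± 0.614 CPM and Sox11 at 4.05 ± 1.26 against 4.08 ± 1.02 CPM. Sox1 was at 1.35 ± 0.796 against 1.59 ± 0.208 CPM, Olig3 at 0.856 ± 0.681 against 0.425 ± 0.501 CPM, Zic1 at 0.287 ± 0.122 against 0.398 ± 0.162 CPM and Pax3 at 0.432 ± 0.341 against 0.569 ± 0.341 CPM (SD, n = 3).

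Across the 16 libraries the genes most alike to each of the 9 were found by Pearson's r of log2 CPM among 16994 genes, as a description in which the points share cell lines and libraries. Sox1 was most like E230016M11Rik at r = 0.99, Sox11 most like Actn3 at 0.98, Zic1 most like Ccdc112 at 0.96, and Tubb3 most like Gm24201 at 0.95, with Ncam1 at 0.94. Olig3 was most like Dcaf15 at 0.93, Nes most like A930004D18Rik at 0.85, Pax3 most like 1500009C09Rik at 0.83 and Hes5 most like Rnu3b4 at 0.60. With a prior count of 0.5 in place of 2, 7 of the 9 genes kept the same most alike gene. Among the 9 genes themselves, r was 0.83 between Sox1 and Sox11, 0.80 between Pax6 and Sox1, 0.72 between Pax6 and Sox11, 0.70 between Sox1 and Zic1, 0.65 between Nes and Pax3 and -0.74 between Zic1 and Tubb3.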

How the data were processed

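RNA-seq libraries were made by the authors from ES cells, paired-end for the 16 Control and Mta123KO libraries and single-end for the 18 single-mutant libraries. The values used are the deposited counts of reads per gene, not normalized. Per the labels and the study's methods, reads were trimmed with Trim Galore, aligned to GRCm38/mm10 with TopHat2 and counted with featureCounts. The stranded kit used for each library, the strand setting and the handling of reads that map to several places are not given in the sources used here. The 92 spike-in RNAs were kept out of library sizes and tests. Depth was 37855790 to 57602285 counts in the 16 libraries and 13105820 to 40613585 in the 18. The number of libraries limits the precision more than counting error does, except for the genes with few counts, and an upper limit for 0 counts is that of 3 counts and covers counting error only.

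Symbols and coordinates came from the GRCm38 annotation, and upstream windows from RefSeq. Levels are counts scaled to 1000000 of the TMM-normalized total (CPM). Comparisons used edgeR 4.0.16 in R 4.3.3 (quasi-likelihood test, TMM, filterByExpr with a minimum count of 10), fitted over all genes of a table with the groups compared, and p-values were adjusted by Benjamini-Hochberg over all genes tested. Culture changes are labelled 48 h over labelled 2iL, and genotype changes are mutant over flox/flox, WT or Control. The interaction used all 4 groups. DESeq2 1.42.0, RLE size factors, no filter, no threshold on fold change, the replicate number or line as a block, 1 fit of all libraries, lines summed, spike-in scaling and each library left out were alternatives. On simulated counts with 200 genes changed by a log2 change of 2, the test recovered 95.5% in the design of Mta123KO against Control labelled 2iL (21370 genes) and 100% in that of Mta2 (15447 genes). The changed genes had a mean over 1 CPM, and the simulated libraries shared no lines. These shares therefore do not cover genes below that level or libraries that share a line.

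Libraries with the same replicate number deviated together between culture labels (correlations of 0.387 to 0.454 in Control and 0.653 to 0.698 in Mta123KO) and in Mta1 (0.522 to 0.735), so the numbers were taken to pair those samples from the data alone. The main tests did not use this pairing, and the replicate block was an alternative. In the 16 libraries a shared number also meant a shared line, and these were not told apart. Replicates differed by more than sampling noise, with chi-square values per degree of freedom of 6.3 to 113 in the 16 libraries and 4.4 to 215 in the 18. In each of the 4 groups libraries of the same line were closer than those of different lines, so p-values over libraries may be too small. The gap was wide in Mta123KO, at 6.3 to 19.4 within lines and 87.0 to 113 between them. In Control labelled 2iL the values were 6.8 and 15.6 within lines and 17.6 to 34.8 between. In Control labelled 48 h they were 17.1 and 19.0 within lines and 19.4 to 30.6 between. Among the 18, WT replicate 3 of the Mta2 set stood apart (187 and 215, against 8.6 between replicates 1 and 2), as did Mta2 KO replicate 2 (77.1 and 74.7, against 4.4). Named genes of the lists were at most 2 that rose and 2 that fell by the largest change among called genes whose groups did not overlap and whose higher mean reached 1 CPM. Some genes that these rules name are not reported here. The 9 genes, the lists and the tests were chosen with earlier results of these data known.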

Additional observations from a re-analysis of the deposited data

Results flagged for a closer look

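For 3 of the 9 genes the culture change differed between Mta123KO and Control by the interaction test. It was smaller in Mta123KO for Sox1 by 1.501 on the log2 scale (adjusted p = 0.00859), for Sox11 by 1.86 (adjusted p = 0.0074) and for Zic1 by 2.25 (adjusted p = 0.0158), by edgeR's quasi-likelihood test over 22973 genes. With the 2 libraries of each line summed the adjusted p-values were 0.178, 0.205 and 0.136. Zic1 had 0 to 4 counts a library in Control labelled 48 h and passed the filter through groups in which it was higher, so its call says nothing beyond that. Both cultures are given as labelled, and exchanging the labels would turn the sign of all 3.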

How the results depend on the processing

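Of the settings other than leaving out a library, 338 values kept their direction and side of the threshold on adjusted p. A further 16 came to pass that threshold, 20 no longer passed it and 8 changed direction. These counts use adjusted p alone, with no minimum fold, so they are not counts of calls. With no threshold on fold change 1 of the 9 genes was called higher with culture in Control (0 as reported) and 2 lower in Mta2 KO (1). With the replicate number as a block, with the line as a block and in 1 fit of all libraries, 1 gene was called higher with culture in Mta123KO (0). With the libraries of each line summed, 0 were called lower with culture in Mta123KO (3), 1 higher in Mta123KO labelled 48 h (2) and 0 in the interaction (3). Over all genes 0 of 24445 were then called with culture in Mta123KO, while 1878 were called higher and 956 lower between genotypes labelled 2iL at the same number of values. The fit of summed lines did not pair a line across labels, and the cause was not tested. In 1 fit of all libraries 0 were called lower in Mta2 KO (1). In Mta3 del/del 0 were called lower (1) with DESeq2, with no filter, with the replicate block and in 1 fit of all libraries. Scaled to the spike-in RNAs, Pax6 with culture in Mta123KO had an adjusted p of 0.0569, the change of Nes with culture in Control was 0.0089, Sox11 in Mta123KO labelled 48 h was at -0.13 and the interaction of Olig3 at -0.23. The interaction of Olig3 was -0.0017 with DESeq2, -0.0080 with RLE factors, -0.018 with no filter and -0.30 with the replicate block, and Nes in Mta1 del/del was 0.029 with the replicate block. Their causes were not tested.

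Same-numbered libraries did not deviate together in every pair between genotypes (correlations of -0.295 to -0.0204 labelled 2iL and -0.139 to 0.0448 labelled 48 h), in Mta2 (-0.204 to 0.426) or in Mta3 (-0.0726 to 0.36), so there they share only a number. In those comparisons the replicate block brought the genotype differences of Sox1 and Tubb3 labelled 48 h to adjusted p-values of 0.021 and 0.0445 and that of Zic1 in Mta3 to 0.0512. Beside the changes given here and in the report, the block moved no other value of the 9 genes across the threshold on adjusted p.

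With 1 library left out, the called counts ran from 0 to 1 higher and 2 to 3 lower with culture in Mta123KO, 3 to 4 lower in Mta123KO labelled 2iL, 2 to 3 lower labelled 48 h, 3 to 4 higher in the interaction, 0 to 1 lower in Mta2 KO and 0 to 2 lower in Mta3 del/del. Direction changed among values that were not called. The ranges were -0.013 to 0.19 for Nes and -0.39 to 0.0039 for Zic1 in Mta123KO labelled 2iL, -0.11 to 0.21 for Sox11 labelled 48 h, -0.28 to 0.060 for Tubb3 and -0.67 to 0.38 for Olig3 in the interaction, and -0.25 to 0.98 for Zic1 in Mta2 KO. In Mta1 del/del they were -0.37 to 0.093 for Pax6, -0.38 to 0.71 for Nes, -0.80 to 0.042 for Sox1, -0.17 to 0.99 for Tubb3, -0.28 to 0.12 for Sox11 and -1.23 to 0.18 for Pax3. Zic1, Pax3, Olig3 and Hes5 rest on few counts, which limits what could be seen of them.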
